A study of Danio rerio with 22 samples.

Results

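Of 32057 zebrafish genes, 91 held more RNA in the germ cells of the W-hybrid than of the Z-hybrid at 10 days post fertilization (dpf) and again at 12 dpf. They were chosen by a rule on the measured levels themselves, so their excess in the W-hybrid at these ages is a description and not a result. The level is TPM, which is scaled for gene length and sequencing depth, and differences are of log2(TPM + 1). A gene was taken where its mean was at least 2 TPM in the W-hybrid at each age, every W-hybrid library lay above every Z-hybrid library at each age, and the mean difference was at least 0.4 at each age. A mean of 2 TPM or more at both ages was reached by 13823 genes, and the libraries of the hybrids were fully separated at both ages in 116 of them. The mirrored rule, with the hybrids exchanged, gave 73 genes.

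Laboratory zebrafish have no sex chromosome, whereas females of the wild Nadia strain carry a W locus. The W-hybrid came from WW Nadia mothers and Tg(ziwi:GFP) fish of the Tupfel long-fin strain and was presumptively female. The Z-hybrid came from ZZ Nadia fathers and Tg(ziwi:GFP) mothers and was presumptively male. All germ cell groups thus had the same hybrid strain and the same transgene, which the ziwi promoter drives in germ cells. The mothers were of different strains, so the W locus and the mother's strain cannot be told apart. GFP-positive germ cells were sorted from the dissected gonads of pooled, staged larvae, and each library was 1 batch. Smart-seq HT was used for 3 batches of each hybrid at 10 dpf and 4 of each at 12 dpf, and for 2 batches of trunk cells at 10 dpf whose hybrid the records do not give. Quartz-seq, another way to amplify cDNA from few cells, was used at 12 and at 14 dpf, each time for 2 batches of the W-hybrid and 1 of the Z-hybrid. Larval germ cells of both sexes first divide as gonocytes, and some then enter meiosis and become oocytes. In bulk libraries, fewer cells of a type and less RNA per cell cannot be told apart.

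The total count ranged from 13556583 to 18321681 over the 14 germ cell libraries of Smart-seq, and from 13828828 to 37224644 over the 6 Quartz-seq libraries, of which the Z-hybrid at 12 dpf was the shallowest. The 17 germ cell markers found summed to between 3579 and 6478 TPM in each Smart-seq germ cell library, to at least 20774 TPM in each Quartz-seq library, and to 2.69 and 3.34 TPM in trunk cells. The summed level of 9 epidermal markers, found of 10 listed, did not overlap between the hybrids by Smart-seq. It was 60.5 to 110 TPM in the W-hybrid, against 43.9 to 45.8 TPM in the Z-hybrid at 10 dpf, and 64.6 to 87.5 against 42.4 to 53.2 TPM at 12 dpf. These sums were at least 15973 TPM in the trunk. Of the 8 epidermal markers tested by edgeR, 1 was called higher at 10 dpf and 1 at 12 dpf, on the terms given below. Their median log2 fold change was 0.38 at 10 dpf and 0.04 at 12 dpf. Single genes can carry such a sum, here and by Quartz-seq below, and the weight of each marker was not examined. The 6 muscle markers found of 10 summed to 86.6 to 120 TPM (W-hybrid) against 71.0 to 85.7 TPM (Z-hybrid) at 10 dpf, and overlapped at 12 dpf (112 to 157 against 85.9 to 123 TPM). This muscle sum includes tpma, a member, at 16.89 to 29.69 TPM against 5.01 to 16.64 TPM at 10 dpf. The rule thus used part of the sum, and its gap between the hybrids is only a description. The part of the epidermal and muscle markers in the differences below was not tested. None of the 38 meiosis, 45 mitosis, 50 DNA replication, 15 early oocyte, 17 piRNA or 13 mitochondrially encoded genes found was among the 91, and tpma, a muscle tropomyosin, was the only member in any marker list.

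The differences that the rule used had a median of 1.13 at 10 dpf (0.41 to 3.91) and 1.17 at 12 dpf (0.41 to 3.50). For comparison, the medians over the 13823 genes were -0.14 and 0.02. The difference was at least 1 at both ages in 43 members, and it was the larger at 10 dpf in 42 members. Just inside the limit were PSAT1, with a smaller difference of 0.41, aire (0.41) and si:ch211-214b16.2 (0.42). Just outside were si:dkeyp-69c1.9 (0.39), EEF1AKMT2 (0.39) and ccdc9b (0.38). A gene was called where edgeR's quasi-likelihood test gave an adjusted p (Benjamini-Hochberg) under 0.05, the fold was at least 1.5 and the mean of the higher group was above 5 TPM. On these terms, 54 of 88 members tested were called higher at 10 dpf, where 3.05% of all genes tested were. At 12 dpf, 12 of 87 were called, against 0.0797% of all. The rule used the same libraries, and nothing is read from these counts.

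**Figure D1:**
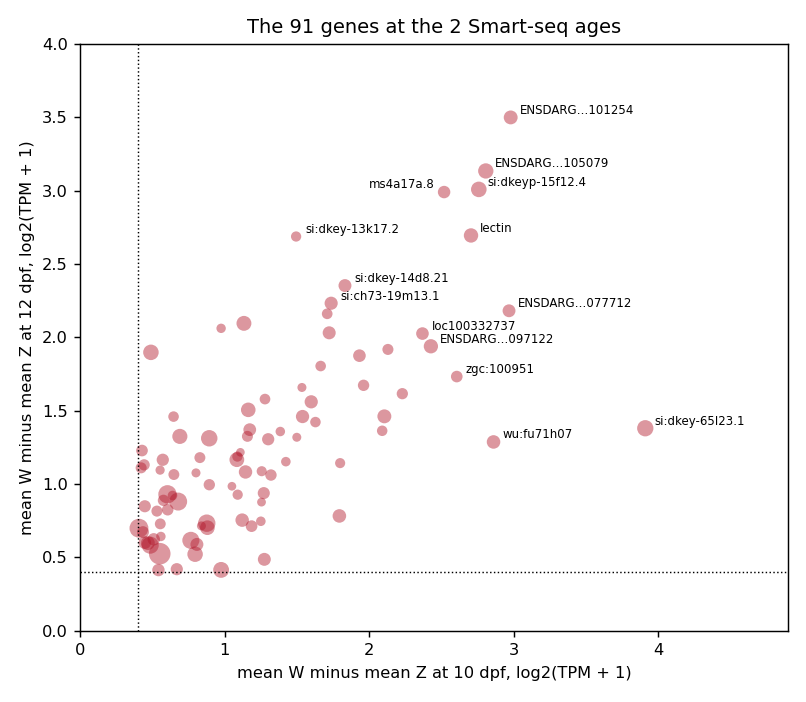
Mean W-hybrid minus mean Z-hybrid level of each of the 91 genes at 10 dpf (x axis) and 12 dpf (y axis), both in log2(TPM + 1) by Smart-seq, with a larger point for a higher W-hybrid level. The dotted lines are the limit of 0.4 that chose the genes, and ENSDARG00000101254 and si:dkey-65l23.1 lie farthest out, at 3.50 on the y axis and 3.91 on the x axis.

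The 3 members with the largest mean difference over both ages have only provisional names, and no function is given for them here. The first, ENSDARG00000101254, was at 18.38, 19.58 and 18.71 TPM at 10 dpf in W-hybrid cells, against 1.79, 1.81 and 1.05 TPM in the Z-hybrid. At 12 dpf it was at 15.64, 23.97, 14.13 and 23.59 TPM in the W-hybrid, against 0.27, 0.71, 0.86 and 1.34 TPM in the Z-hybrid. The lowest W-hybrid library was thus far above the highest Z-hybrid library at each age. A gene named from the same genomic clone, ENSDARG00000105079, was at 35.19 to 39.29 TPM in the W-hybrid, against 3.24 to 7.08 TPM in the Z-hybrid at 10 dpf. At 12 dpf its levels were 34.70, 53.51, 44.95 and 40.16 TPM in the W-hybrid against 5.58, 4.07, 3.92 and 2.77 TPM. Both genes of this clone that the files list were members. The third, si:dkeyp-15f12.4 (ENSDARG00000092315), was at 60.96, 52.26 and 42.14 TPM in the W-hybrid, against 4.05, 8.88 and 8.23 TPM in the Z-hybrid at 10 dpf, and at 26.79 to 51.63 against 2.48 to 5.61 TPM at 12 dpf.

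Next in order came ms4a17a.8 (ENSDARG00000043802), of the MS4A family of membrane proteins, and lectin (ENSDARG00000055833), named as a sugar-binding protein. The level of ms4a17a.8 was 7.64, 5.99 and 6.62 TPM at 10 dpf in W-hybrid cells, against 0.36, 0.08 and 0.67 TPM in the Z-hybrid. At 12 dpf it was 7.80 to 18.26 TPM in the W-hybrid, and 3 Z-hybrid libraries were at 0.25 TPM or less while replicate 1 was at 4.31 TPM. lectin was at 16.79 to 27.36 TPM in the W-hybrid, against 1.13 to 5.12 TPM in the Z-hybrid at 10 dpf, and at 18.51 to 34.30 against 0.94 to 6.45 TPM at 12 dpf. A different course was that of si:dkey-65l23.1 (ENSDARG00000094538), which had the largest difference at 10 dpf. In the W-hybrid it was at 95.02, 83.54 and 64.20 TPM at 10 dpf and at 48.24, 75.47, 45.28 and 62.29 TPM at 12 dpf. In the Z-hybrid it was at 2.99, 5.4 and 5.11 TPM at 10 dpf and at 30.32, 31.53, 23.51 and 8.61 TPM at 12 dpf, so that every Z-hybrid library at 12 dpf was above every one at 10 dpf.

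ENSDARG00000077712, which has no symbol, was at 12.23, 22.43 and 12.62 TPM in the W-hybrid, against 1.03, 1.38 and 0.83 TPM in the Z-hybrid at 10 dpf. At 12 dpf its W-hybrid levels were spread from 2.58 to 14.49 TPM, above 0.18 to 1.84 TPM. ENSDARG00000092732 (loc100332737) was at 12.54, 15.25 and 10.73 TPM in the W-hybrid against 1.83, 1.37 and 1.80 TPM at 10 dpf, and at 12.35, 4.41, 6.28 and 10.25 TPM against 0.78, 1.25, 1.71 and 0.98 TPM at 12 dpf. zgc:100951 (ENSDARG00000111442), which also has no established name, was at 7.03, 14.27 and 7.61 TPM in the W-hybrid against 1.02, 0.67 and 0.39 TPM at 10 dpf, and at 3.37 to 5.50 against 0.42 to 0.78 TPM at 12 dpf.

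The other 6 of the 15 members with the largest mean difference were ENSDARG00000097122, si:dkey-14d8.21, si:dkey-13k17.2, wu:fu71h07, ENSDARG00000105162 and si:ch73-19m13.1. Of these, si:dkey-13k17.2 had no count in any of the 4 Z-hybrid libraries at 12 dpf and was at 3.28, 8.31, 4.98 and 6.23 TPM in the W-hybrid. Against a floor of 3 counts per library, its mean CPM, the count scaled to library size, in the W-hybrid was at least 5.63-fold higher. At 10 dpf it had 9, 10 and 2 counts in the W-hybrid against 1, 0 and 0 in the Z-hybrid, at least 2.36-fold higher than the floor. The separation at 10 dpf thus rested on 2 counts against 1, both under the floor. This gene was at 0 TPM in the 6 Quartz-seq and the 2 trunk libraries. At 10 dpf si:dkey-14d8.21 was at 10.02 to 11.13 TPM in the W-hybrid against 1.62 to 3.03 TPM.

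**Figure D2:**
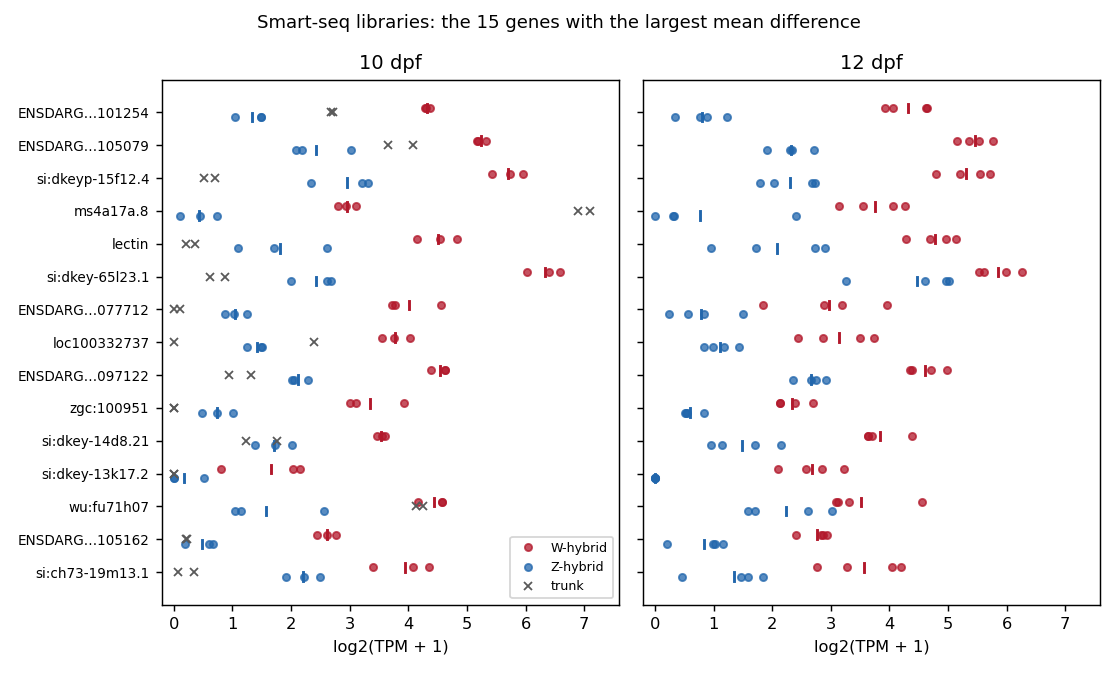
Level in each Smart-seq library, log2(TPM + 1), of the 15 genes with the largest mean difference, at 10 dpf (left) and 12 dpf (right). Red points are W-hybrid libraries, blue points Z-hybrid libraries, short bars their means and grey crosses the 2 trunk libraries, and no blue point reaches a red one in any row.

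The 5 members with the highest W-hybrid levels at 10 dpf included a chaperone subunit and an enzyme. HSPE1, the co-chaperone of the mitochondrial chaperonin, was at 2418 to 2743 TPM in the W-hybrid, against 1645 to 1993 TPM in the Z-hybrid at 10 dpf, and at 1978 to 2629 against 1106 to 1881 TPM at 12 dpf. PSAT1, an aminotransferase of serine synthesis, was at 286.47 to 373.13 TPM against 226.3 to 281.69 TPM at 10 dpf, and at 307.56 to 421.52 against 198.07 to 231.84 TPM at 12 dpf. ponzr1, of the plac8 family, was at 213 to 306 TPM against 166 to 186 TPM at 10 dpf. si:dkey-102m7.3 and si:dkey-100n23.4 had means of 185 ± 35.2 TPM (SD, n = 3) and 142 ± 12.3 TPM (SD, n = 3) in the W-hybrid at 10 dpf, against 114 and 77.3 TPM in the Z-hybrid. Apart from these 5 genes and zgc:163030, no member had a W-hybrid mean of 100 TPM at that age, and 26 had a mean below 5 TPM. At 10 dpf the median over the members was 8.79 TPM (W-hybrid) and 3.32 TPM (Z-hybrid), and over the 13823 genes it was 13.8 and 16.6 TPM.

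A symbol other than a clone name or provisional name was given to 36 members, and 45 had a provisional name and 10 no symbol. Provisional names made up 49.5% of the members and 12.9% of the 13823 genes. The members were also short. Their median length was 948.5 bases against 1884 bases, and 54.9% of them were under 1000 bases against 16.6%. RSEM shares reads between genes that are alike in sequence, and near-identical copies of the members were not examined here. Expected counts were fractional in the same libraries for 2 members, ENSDARG00000077712 and ENSDARG00000116570. They were 129.58 and 113.42 in replicate 3 of the W-hybrid at 10 dpf, and 120.61 and 73.39 in replicate 4 at 12 dpf. These 2 members may share reads and may not be separate observations.

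Several members with an established name have known roles, and those in the next sentences were picked for their role after their values were seen. In metabolism, MCEE, an epimerase of propionate breakdown, was at 44.8 ± 3.66 TPM (SD, n = 3) in W-hybrid cells and 25.4 TPM in the Z-hybrid at 10 dpf. SRD5A2, which reduces testosterone to dihydrotestosterone, was at 2.14 ± 0.52 TPM (SD, n = 3) against 0.50 TPM. Among genes known from immunity, aire, which drives the display of tissue antigens in the thymus, was at 10.1 ± 1.02 TPM (SD, n = 3) against 6.66 TPM, and c1qc, a complement subunit, at 9.37 ± 0.68 TPM (SD, n = 3) against 6.62 TPM. VEGFD, a growth factor of lymphatic vessels, was at 7.05 ± 3.29 TPM (SD, n = 3) against 0.77 TPM. Genes known from nerve included CNTN5, a contactin of neural adhesion, at 3.34 ± 0.40 TPM (SD, n = 3) against 0.70 TPM, and MLLT11 at 40.4 ± 6.83 TPM (SD, n = 3) against 24.6 TPM. nabp1b, which binds single-stranded DNA, was at 19.6 ± 0.18 TPM (SD, n = 3) against 14.0 TPM.

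The ages were compared within each hybrid, in the libraries that the rule used, so the members' counts and p-values here are a description. No member was called between 12 and 10 dpf by edgeR, with 89 tested in the W-hybrid and 77 in the Z-hybrid, and 0.181% and 0.0392% of all genes tested were called. An unadjusted p under 0.05 was found for 14 and 15 members, and for 13.1% and 20.3% of all genes tested. DESeq2 called 4 members in each hybrid, where it called 0.894% (W-hybrid) and 5.22% (Z-hybrid) of all genes. The change with age itself was compared between the hybrids by an interaction term in the same libraries. The rule held the W-hybrid above the Z-hybrid at both ages, so this comparison was not free of the choice of members. No member was called, and none of all genes tested (0%), while 10 members and 17.2% of all genes had an unadjusted p under 0.05. DESeq2 called 3 members and 2.18% of all genes. The member with the lowest adjusted p in this test was si:dkey-65l23.1, with a log2 interaction of -3.07 ± 0.49 (SE, adjusted p = 0.0790 by edgeR), and its log2 difference between the ages in the Z-hybrid was 2.55 ± 0.44 (SE, adjusted p = 0.0653). In the W-hybrid the difference was -1.28 ± 0.34 for zgc:100951 (SE, adjusted p = 0.175) and 1.102 ± 0.25 for si:dkey-149f22.2 (SE, adjusted p = 0.0938), and neither passed the test.

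One Z-hybrid library at 12 dpf was low in the members, which is a description, because the rule used these levels. Replicate 2 was the lowest of the 4 in 49 members. Over the 13823 genes it was the lowest in 34.1%, and replicate 3 was in 36.3%. Replicate 2 had 18743 genes with 10 or more counts, against 19729 to 20187 in the other 3. Its mean log2(TPM + 1) over the members was 2.02, against 2.39 to 2.52 in the other 3, and the W-hybrid libraries at this age had means from 3.51 to 3.71. Without this library the rule gave 95 genes, 88 of them among the 91.

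The Quartz-seq libraries were not used by the rule. Both W-hybrid libraries were above the Z-hybrid library at 12 dpf in 53 of the 91 members (58.2%), against 51.1% of the 13823 genes, and both were below it in 25 (35.8% of the 13823 genes). At 14 dpf they were above in 51 members (56.0%), against 51.7%, and below in 20 (30.6% of the 13823 genes). All 4 W-hybrid libraries were above both Z-hybrid libraries in 29 members (31.9%), against 26.6% of the 13823 genes, and below both in 6, against 14.1%. The shares above are near those of all genes and are not a result about the members. The median difference was 0.69 at 12 dpf and 0.53 at 14 dpf over the members, and 0.27 at each age over the 13823 genes. The SD of the members' median between the W-hybrid libraries was 0.04 at 12 dpf and 0.31 at 14 dpf. With TMM-scaled CPM in place of TPM, the medians of the members were 0.34 and 0.16. Marker sums also differed between the hybrids by Quartz-seq. Of the 9 gonadal soma markers found of 15, DMRT1, a transcription factor of the testis, made up most of the sum. In the sorted germ cells by Smart-seq, DMRT1 was at 74.33 to 141.69 TPM, while the other 8 summed to 3.14 to 11.27 TPM. The sum with DMRT1 is therefore not read as a measure of somatic cells. By Quartz-seq DMRT1 was at 135 and 123 TPM in the W-hybrid against 279.54 TPM at 12 dpf. At 14 dpf it was at 181 and 184 TPM against 316.63 TPM. The other 8 summed by Quartz-seq to 17.03 and 9.44 TPM against 24.1 TPM at 12 dpf and to 11.9 and 7.51 TPM against 8.05 TPM at 14 dpf. The epidermal sum was 119 to 147 TPM in the W-hybrid against 104 and 106 TPM. The 38 meiosis genes found summed to 5810 to 9880 TPM in the W-hybrid against 4169 (12 dpf) and 2806 TPM (14 dpf). The 15 early oocyte genes found lay the other way, at 2575 to 3124 TPM against 6081 (12 dpf) and 5997 TPM (14 dpf). The Z-hybrid libraries also held fewer genes with 10 or more counts, with 16597 (12 dpf) and 16617 (14 dpf), whereas W-hybrid libraries had 18966 to 20378. Their 13 mitochondrially encoded genes summed to 8539 and 11762 TPM, against 18819 to 33131 TPM. The part of these values in the Quartz-seq differences was not tested.

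The rule set the members' Smart-seq levels in the W-hybrid, so their distance from the Quartz-seq levels is given only as a description. At 12 dpf in the W-hybrid, 80 of the 91 had less RNA by Quartz-seq than by Smart-seq, as had 47.1% of the 13823 genes. The median difference was -1.50 in log2(TPM + 1) over the members and 0.13 over the 13823 genes. The Z-hybrid had 67 members and 53.5% of the 13823 genes lower, with medians of -0.85 and -0.23. In the Z-hybrid, 42 members at 12 dpf and 31 at 14 dpf had 3 counts or fewer by Quartz-seq. HSPE1, at 1978 TPM or more in each 12-dpf Smart-seq library of the W-hybrid, was at 103 and 139 TPM by Quartz-seq.

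With age as a term, 82 members were tested over the 6 Quartz-seq libraries, and ENSDARG00000092732 (loc100332737) was the only one called. By Quartz-seq it was at 7.40 and 11.61 TPM in the W-hybrid at 12 dpf and at 11.93 and 11.15 TPM at 14 dpf, whereas the Z-hybrid had 0 TPM at 12 dpf and 0.04 TPM at 14 dpf. Its log2 fold change was 6.73 ± 0.95 (SE, adjusted p = 0.00888 by edgeR). At 12 dpf, where the Z-hybrid library had no count, its mean in the W-hybrid was at least 39.8-fold higher than a floor of 3 counts. The call was lost without replicate 2 of the 12-dpf W-hybrid (adjusted p = 0.0553, the highest of its 11 alternatives, whose lowest was 1.93e-07). Calls in this test went to 1.15% of all 23154 genes in the higher and to 2.18% in the lower direction. An unadjusted p under 0.05 was found for 15 members that were higher and 2 that were lower in the W-hybrid, and for 22.0% of all genes.

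At 12 dpf alone, 8 of 82 members were called with more RNA in the W-hybrid and 2 with less, where 13.3% and 8.14% of all genes tested were. At 14 dpf, 6 were called higher and 0 lower, against 4.23% and 4.95%, and 1 member had an unadjusted p under 0.05 in the lower direction. Library size alone in place of TMM moved the median of all genes at 14 dpf from 0.28 to 0.59 and turned the sign of 7 members. These tests rest on 1 Z-hybrid library at each age and take the spread from the W-hybrid batches.

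2 members were called higher at both ages. ENSDARG00000092732 was one. Its log2 fold change was 6.99 ± 1.07 at 12 dpf (SE, adjusted p = 0.00103 by edgeR) and 6.57 ± 0.97 at 14 dpf (SE, adjusted p = 0.00209), and both calls held under the 10 alternatives that tested it. The other was ENSDARG00000077712, at 6.10 and 7.25 TPM in the W-hybrid at 12 dpf, 2.49 and 7.70 TPM at 14 dpf, and 0 TPM in each Z-hybrid library. Its mean CPM was at least 10.4-fold higher than the floor of 3 counts at 12 dpf and at least 16.6-fold higher at 14 dpf. Its adjusted p was 0.0327 and 0.0485 by edgeR, and ranged from 0.00268 to 0.0560 and from 0.00337 to 0.0789 over the alternatives. The 12-dpf call was lost without replicate 2 of the 12-dpf W-hybrid, and the 14-dpf call without replicate 2 of the 14-dpf W-hybrid and in limma.

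At 12 dpf, EML1, a protein that binds microtubules, was at 30.50 and 41.96 TPM in the W-hybrid, against 4.80 TPM in the Z-hybrid. It was higher in the W-hybrid by a log2 fold change of 4.92 ± 0.55 (SE, adjusted p = 0.000263 by edgeR). At 14 dpf its level was 28.51 and 33.98 TPM against 22.48 TPM, a difference that did not pass the test (adjusted p = 0.905). The level of si:dkeyp-15f12.4 was 12.49 and 18.85 TPM against 0 TPM at 12 dpf, at least 22.5-fold higher than the floor, and 12.55 and 16.60 TPM against 6.76 TPM at 14 dpf (adjusted p = 0.00384 and 0.537 by edgeR). si:dkey-149f22.2 was at 16.48 and 25.01 TPM against 4.11 TPM, si:ch211-103n10.5 at 10.40 and 4.59 TPM against 0.31 TPM and prr15la at 16.15 and 10.02 TPM against 2.28 TPM. All 3 were called, with log2 fold changes of 2.41 ± 0.77, 3.83 ± 1.27 and 2.55 ± 0.74 (SE). The first call was lost without replicate 2 of the 12-dpf W-hybrid (2.09) and the others without replicate 1 (3.16 and 2.17). PSAT1 was at 69.42 and 157.03 TPM against 50 TPM at 12 dpf and at 142.71 and 148.15 TPM against 147.07 TPM at 14 dpf. Its 12-dpf call (1.34 ± 0.45, SE, adjusted p = 0.0467 by edgeR) was lost without replicate 2 of the W-hybrid, where the value was 0.65, and also with library size alone and in limma.

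2 members were called in the other direction at 12 dpf. CNTN5, a contactin, was at 0.46 and 2.34 TPM in the W-hybrid by Quartz-seq and at 22.88 TPM in the Z-hybrid. Its log2 fold change was -3.90 ± 1.02 (SE, adjusted p = 0.0158 by edgeR), and the call held under the 11 alternatives that were run. At 14 dpf it was at 0.55 and 2.98 TPM against 6.46 TPM (adjusted p = 0.203). rbm4.3, of a family of RNA-binding proteins that act in splicing, was at 600.57 and 567.76 TPM in the W-hybrid, against 1302.54 TPM in the Z-hybrid. Its log2 fold change of -1.002 ± 0.31 (SE, adjusted p = 0.0323 by edgeR) was no longer called without either W-hybrid library of that age (-1.06 and -0.95). At 14 dpf it was at 597.65 and 456.25 TPM against 596.47 TPM. The Z-hybrid library at 12 dpf that carries both calls was the shallowest of the 20 germ cell libraries but for 1. In it the 3 nerve markers found summed to 30.95 TPM, against 2.40 and 8.33 TPM in the W-hybrid at that age. At 14 dpf their sum was 0.64 TPM in the Z-hybrid against 2.78 and 3.31 TPM in the W-hybrid. The part of nerve RNA in the CNTN5 call was not tested.

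4 members were called higher at 14 dpf and not at 12 dpf, and the difference between the ages was not tested. ENSDARG00000098966 was at 12.01 and 23.98 TPM in the W-hybrid against 0.62 TPM at 14 dpf, a log2 fold change of 4.45 ± 0.84 (SE, adjusted p = 0.00664 by edgeR), and at 7.54 and 8.22 TPM against 3.23 TPM at 12 dpf. zgc:171426 was at 35.75 and 31.41 TPM against 8.27 TPM at 14 dpf, and at 13.18 and 16.49 TPM against 13.12 TPM at 12 dpf. zgc:163030 was at 7.37 and 7.20 TPM against 0 TPM at 14 dpf, at least 20.6-fold higher than the floor. At 12 dpf it was at 7.32 and 9.52 TPM against 1.52 TPM. ENSDARG00000116271 was at 8.95 and 6.11 TPM against 0.70 TPM at 14 dpf and at 5.67 and 3.02 TPM against 0.11 TPM at 12 dpf. Its 12-dpf W-hybrid mean of 4.345 TPM was under the minimum of 5 TPM, so it could not be called at that age. The calls of zgc:171426 (1.78 ± 0.47, SE, adjusted p = 0.0309 by edgeR) and ENSDARG00000116271 (3.20 ± 0.92, SE, adjusted p = 0.0432) were lost without replicate 1 of the 14-dpf W-hybrid, where the values were 1.61 and 2.86, and the latter also in limma.

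**Figure D3:**
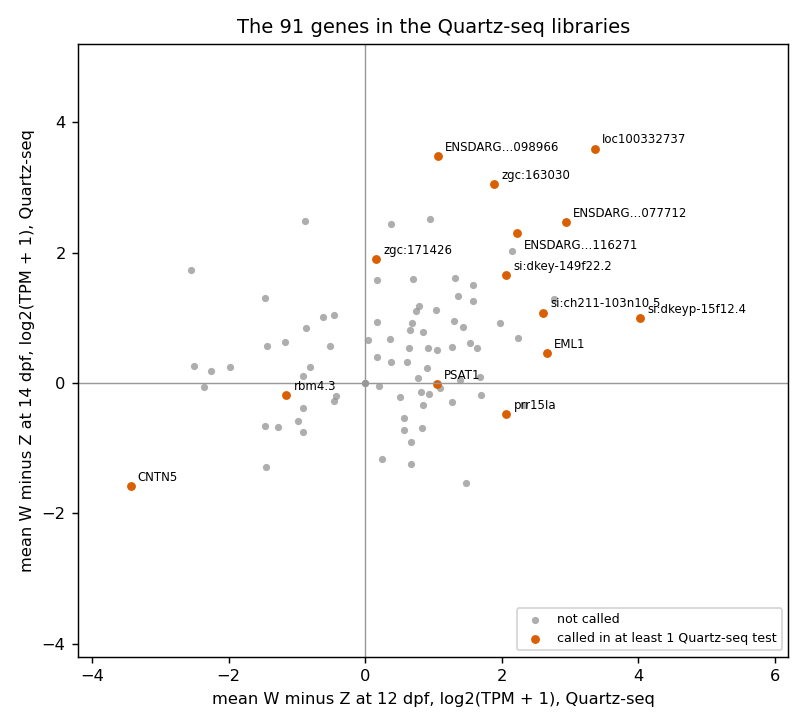
Mean W-hybrid minus Z-hybrid level of each of the 91 genes by Quartz-seq at 12 dpf (x axis) and 14 dpf (y axis), both in log2(TPM + 1), with 2 W-hybrid libraries and 1 Z-hybrid library at each age. Orange points are genes called in at least 1 Quartz-seq test; loc100332737 lies at 3.36 and 3.59 and CNTN5 at -3.43 and -1.59, and many grey points lie on either side of 0.

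Other members with a large Smart-seq difference were low by Quartz-seq. ENSDARG00000101254 was at 3.01, 3.95, 3.83 and 2.46 TPM in the 4 W-hybrid libraries and had no count in either Z-hybrid library. Its 12-dpf mean was at least 3.64-fold and its 14-dpf mean at least 7.16-fold higher than the floor, and its adjusted p with age as a term was 0.120 by edgeR. ENSDARG00000105079 was at 1.06 to 2.18 TPM in the W-hybrid, against 0 TPM in the Z-hybrid. zgc:100951 was at 1.53 and 2.54 TPM against 0 TPM at 12 dpf and at 1.27 and 2.38 TPM against 0.16 TPM at 14 dpf (adjusted p = 0.182 with age as a term). All 3 lay with the 4 W-hybrid libraries above both Z-hybrid libraries, and none was called. lectin and si:dkey-65l23.1 did not keep the order at 12 dpf. lectin was at 1.51 and 0 TPM against 7.14 TPM at 12 dpf, and at 14 dpf its 0.13 and 1.40 TPM lay on either side of 0.72 TPM. si:dkey-65l23.1 was at 2.91 and 2.41 TPM against 7.27 TPM at 12 dpf, but at 2.32 and 4.58 TPM against 1.77 TPM at 14 dpf, where the W-hybrid was again the higher. Neither was called at either age.

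In the trunk, 44 of the 91 members (48.4%) were below 1 TPM in both libraries, against 16.5% of the 13823 genes. The members were also the lower in germ cells at 10 dpf. Their median was 8.79 against 13.8 TPM in the W-hybrid and 3.32 against 16.6 TPM in the Z-hybrid. The part of this in the trunk share was not tested. In the mean of the 2 hybrids at 10 dpf against trunk, edgeR called 32 of 88 members higher in germ cells and 19 lower. Of all genes tested, 23.7% and 20.1% were called, and of the tested genes among the 13823, 38.0% and 22.5%. The members' shares were near those of the 13823 genes and are not a result about the members. The median log2 fold change over the members was 1.42, and 0.35 over all genes tested. The rule asked for 2 TPM in the same W-hybrid libraries, and all genes tested include genes low in germ cells. The 2 medians are therefore only a description. Library size alone in place of TMM shifted the median of all genes to 1.102, and the counts of members were then 40 higher and 17 lower. The trunk libraries differed from each other, with muscle marker sums of 68.6 and 5598 TPM.

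nabp1b, si:dkey-149f22.2, pvalb3 and aire were among the members called higher in germ cells, with log2 fold changes of 6.77, 6.43, 5.67 and 5.15. aire was at 0 and 0.28 TPM in the trunk and at 5.19 to 11.24 TPM in the 10-dpf germ cell libraries. Among the 15 members with the largest difference, zgc:100951, si:dkeyp-15f12.4, ENSDARG00000077712, si:dkey-65l23.1, lectin, si:ch73-19m13.1 and ENSDARG00000097122 were called higher in germ cells. zgc:100951 had 0 TPM in both trunk libraries, and si:dkeyp-15f12.4 was at 0.63 and 0.43 TPM.

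The members lower in germ cells than in the trunk were led by ms4a17a.8, at 117.78 and 135.9 TPM in the trunk, a log2 fold change of -6.89 ± 0.29 (SE, adjusted p = 8.76e-09 by edgeR). si:ch211-103n10.5 was at 110.8 and 158.3 TPM in the trunk and at 2.56 to 3.42 TPM in the W-hybrid at 10 dpf. The most trunk RNA was that of HSPE1 (679.89 and 187.6 TPM), si:dkey-100n23.4 (443.77 and 431.31 TPM) and tpma. The trunk libraries held tpma at 787.3 and 2.3 TPM, and the germ cells at 16.89 to 29.69 TPM in the W-hybrid, against 5.01 to 16.64 TPM in the Z-hybrid at 10 dpf. In the Quartz-seq W-hybrid at 12 dpf it was at 65.94 and 929.01 TPM, and the muscle marker sum was 194 and 2789 TPM in the same libraries. FABP7, a fatty acid binding protein of glia, and c1qc were also lower in germ cells, by log2 fold changes of -5.49 and -3.32. The calls of ENSDARG00000101254 and ENSDARG00000105079, lower by -0.78 and -0.93, were lost with library size alone, where the values were -0.01 and -0.11.

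**Figure D4:**
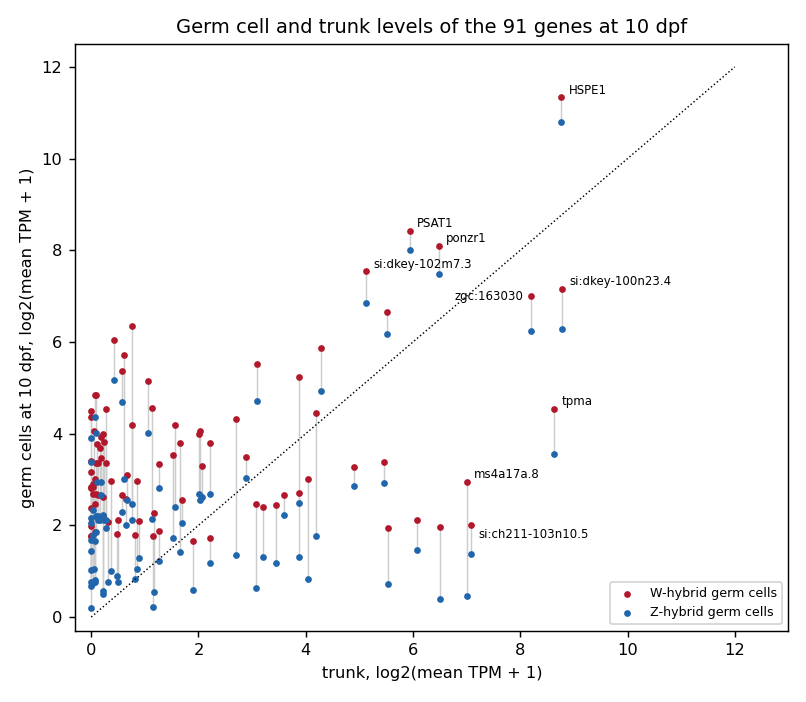
Mean level of each of the 91 genes in the trunk (x axis) and in germ cells at 10 dpf (y axis), both in log2(mean TPM + 1). Red points are the W-hybrid and blue points the Z-hybrid, joined by a grey line for each gene, and the dotted line marks equal levels; ms4a17a.8, tpma and si:dkey-100n23.4 lie below it and HSPE1 above it.

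Some members are neighbours. Gene order was read from RefSeq's GRCz12tu, which is not the build of the files, and 55 members (60.4%) could be placed there by symbol, as could 83.8% of the 13823 genes. 4 pairs of members lay within 5 genes of each other. No such count over the 13823 genes is given here, so the 4 pairs are only a description. pvalb9 and pvalb3, calcium-binding parvalbumins, are adjacent. pvalb9 was at 9.08 to 9.41 TPM in the W-hybrid, against 2.94 to 4.98 TPM in the Z-hybrid at 10 dpf, and pvalb3 at 26.18 to 30.07 against 9.63 to 18.41 TPM. pvalb2, next to pvalb3 and also a muscle marker, was not a member, with differences of 0.27 and 0.44 at 10 and 12 dpf. By Quartz-seq at 12 dpf, pvalb9 was at 5.58 and 2.65 TPM in the W-hybrid, against 22.45 TPM in the Z-hybrid, and pvalb3 at 4.45 and 6.61 TPM against 0.28 TPM, so the adjacent genes lay on opposite sides, and neither was called.

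The other 3 pairs are those among si:ch211-222k6.3, si:dkey-102c8.2 and si:dkey-102c8.3. At 10 dpf si:dkey-102c8.2 was at 4.92, 2.36 and 6.26 TPM in the W-hybrid, against 1.13, 0.28 and 0.26 TPM in the Z-hybrid, and si:dkey-102c8.3 at 4.87, 1.98 and 1.91 TPM against 0.24, 0.32 and 0.38 TPM. si:ch211-222k6.3 was at 3.57 to 5.36 TPM against 1.20 to 1.33 TPM. 2 more members, si:dkey-253d23.4 and zgc:171686, lie in the same stretch of 20 genes, which was singled out after its values were seen. Of these 20 genes, 13 could be matched to the files and 12 were at 2 TPM or more. Of those, 5 were members, as were 91 of the 13823 genes. The other 7 had differences from -0.11 to 0.61 at 10 dpf and from -0.84 to -0.13 at 12 dpf. All 7 were thus lower on average in the W-hybrid at 12 dpf, where the median over the 13823 genes was 0.02. The stretch was chosen for its members, so these counts are only a description. By Quartz-seq at 12 dpf, si:dkey-102c8.2 was at 0.53 and 2.43 TPM in the W-hybrid, against 5.35 TPM in the Z-hybrid, and si:dkey-102c8.3 at 0.75 and 0.87 TPM against 1.48 TPM. The other 3 lay the other way, with si:dkey-253d23.4 at 1.97 and 1.47 TPM against 0 TPM, zgc:171686 at 0.54 and 1.33 TPM against 0 TPM and si:ch211-222k6.3 at 1.56 and 1.6 TPM against 0.69 TPM. At 14 dpf both W-hybrid libraries were above the Z-hybrid library in these 3 and in si:dkey-102c8.2, at 1.5 and 2.2 TPM against 0.15 TPM. They were below it in si:dkey-102c8.3, at 0.44 and 0.27 TPM against 0.64 TPM. In the trunk, si:dkey-102c8.3 was at 56.68 and 121.74 TPM. Of the 5 members, 4 were called lower in germ cells than in the trunk, with log2 fold changes of -3.10 for si:dkey-253d23.4, -2.86 for si:ch211-222k6.3, -2.80 for si:dkey-102c8.2 and -6.05 for si:dkey-102c8.3. The fifth, zgc:171686, was called higher in germ cells (4.45).

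**Figure D5:**
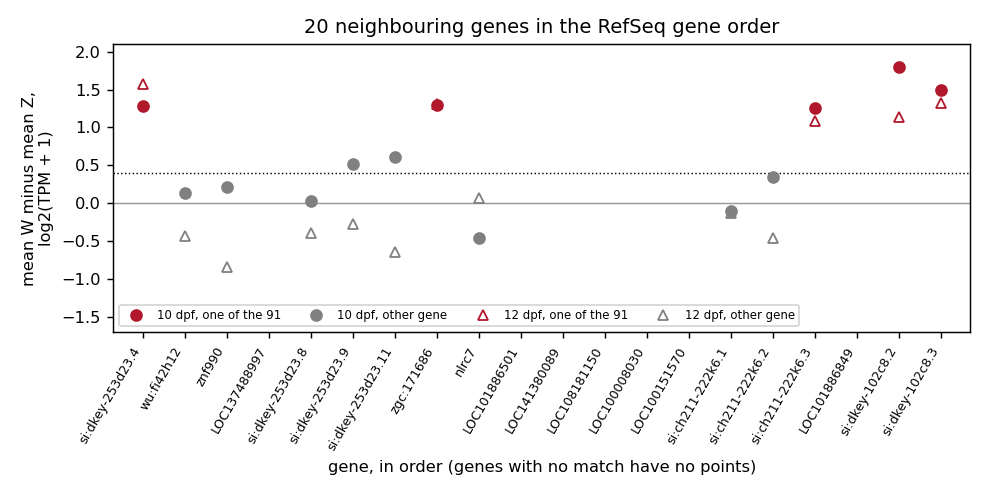
Mean W-hybrid minus mean Z-hybrid level by Smart-seq, log2(TPM + 1), of 20 neighbouring genes in the RefSeq order (x axis, one position per gene). Filled circles are 10 dpf and open triangles 12 dpf, red for the 5 members and grey for other genes, and the dotted line marks 0.4; the grey triangles of the 7 genes at 2 TPM or more all lie below 0.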

How the data were processed

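The authors deposited, for each of 22 libraries, the expected count per gene that RSEM 1.3.1 estimated from STAR 2.7.7a alignments to GRCz11, and the TPM from the same program. Expected counts were rounded. In R 4.3.3, edgeR 4.0.16 was run with TMM, filterByExpr and robust quasi-likelihood fits, and p-values were adjusted by Benjamini-Hochberg over every gene of the fit. DESeq2 1.42.0 and limma 3.58.1 on log2(TPM + 1) were alternatives, with library size alone, other filters, more libraries, the replicate number as a term, and each library left out. Levels used a pseudocount of 1. Standard errors are the log2 fold change over the square root of F. The floor of 3 counts reflects counting error alone, because reads after amplification are not separate molecules. Nothing in the labels says whether batches came from separate crosses, so p-values measure the spread between these samples only. Named were the 15 members with the largest difference, those called by Quartz-seq, the 5 highest, members in a list, those next to the limits, neighbours, and those with the most trunk RNA. The members and lists were chosen with earlier results of these data known. 1 gene was left out by the rule. Symbols came from a table that pairs them with 90.4% of the identifiers. Sequences and coordinates were not used here. Trunk libraries have no hybrid in the labels. The values of 1 member are not reported here.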

Additional observations from a re-analysis of the deposited data

Results flagged for a closer look

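In 6 of 75 groups of 4 Smart-seq libraries at 12 dpf that were examined for the named members, 1 library lay far from the other 3 by Dixon's test. Its usual rate of about 1 group in 20 holds for normally spread values that were not chosen. These are TPM in libraries that the rule used, so the count is not set against that rate. In the Z-hybrid, ms4a17a.8 (ENSDARG00000043802) was at 4.31 TPM in replicate 1 and at 0 to 0.25 TPM in the others, and zgc:100951 was at 0.78 TPM in replicate 4 and at 0.42 to 0.46 TPM in the others. zgc:163030 was at 80.91 TPM in Z-hybrid replicate 3, above 56.71 to 59.05 TPM, and prr15la was at 0.74 TPM in Z-hybrid replicate 2, below 2.96 to 3.36 TPM. In the W-hybrid, si:dkey-14d8.21 was at 20 TPM in replicate 2, above 11.37 to 11.97 TPM, and wu:fu71h07 was at 22.4 TPM in replicate 3, above 7.48 to 8.93 TPM.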

How the results depend on the processing

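The counts of members called depended on the settings. With Quartz-seq and age as a term, 1 member was called, against 0 where 10 counts were required in every library, 7 by DESeq2, 2 by library size alone, 5 by limma and 3 with no filter, and 0 to 8 with each library left out. At 12 dpf by Quartz-seq, 8 were called higher, against 4 with 10 counts required and 16 in a fit of all 20 germ cell libraries, and 2 lower, against 4 by DESeq2, 8 in the fit of 20 libraries, 8 by limma and 1 to 4 with each library left out. At 14 dpf, 6 became 2 with 10 counts required. By Smart-seq at 12 dpf, 12 became 6 with 10 counts required, 29 by DESeq2 and 22 in a fit of 14 libraries. Between the ages, 0 became 4 by DESeq2 and 1 with no filter in each hybrid, 4 in the Z-hybrid in the fit of 14 libraries, and 0 to 1 in the W-hybrid and 0 to 3 in the Z-hybrid with each library left out. The interaction gave 3 by DESeq2 and 0 to 3 with each library left out. Against trunk, 32 higher became 4 and 19 lower became 11 with 10 counts required, a filter that drops genes low in either tissue. The rule gave 43 members with a difference of 1 or more and 60 with a W-hybrid level of 5 TPM or more. These 2 settings can only drop members. With TMM-scaled CPM in place of TPM the rule gave 87 genes, of which 71 were among the 91. With each library left out it gave 91 to 127 genes. The median Quartz-seq difference at 12 dpf was 0.3445 with CPM, 1.3850 with a pseudocount of 0.1 and 0.6333 to 0.6871 with a library left out. At 14 dpf it was 0.1578 with CPM, 0.769 with a pseudocount of 0.1 and 0.2141 to 0.6574 with a library left out. Deviations of same-numbered libraries correlated from -0.17 to 0.15 at 10 dpf and from -0.02 to 0.22 at 12 dpf, which does not settle whether replicate numbers pair the samples. With the replicate block, 3 members were called between ages in the W-hybrid and 1 in the Z-hybrid. These block fits also left out replicate 4 at 12 dpf, so the block and the lost library cannot be told apart. The causes were not tested. Of 17 calls by Quartz-seq, 164 of 179 alternative values kept the call, 15 lost it and 0 reversed. The single Z-hybrid library at each Quartz-seq age, and the 42 members with 3 counts or fewer in it at 12 dpf, limit what could be detected.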
